A study of Mus musculus with 21 samples.

Results

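The facilitative glucose transporters GLUT1, GLUT3 and GLUT4 (Slc2a1, Slc2a3 and Slc2a4) and 6 genes that move GLUT4 to the cell surface (Tbc1d1, Tbc1d4, Lnpep, Vamp2, Stx4a and Sort1) were followed in 3T3-L1 adipocytes, fat cells of a mouse line differentiated in culture. Members were found by gene symbol in the platform annotation, and each was read from its probe set with the highest mean over the 21 arrays. Of the 9 genes, 8 had a probe set under their own symbol, out of 18194 genes on the array, and together they held 21 probe sets. Lnpep, the insulin-responsive aminopeptidase of the GLUT4 vesicles, was not analysed here. Each value is a deposited log2 level, on which a step of 1 is a doubling. To be tested, a gene needed 3 or more arrays above 5.34, the median of the whole data set, and 7 of the members and 12156 genes in all met that filter.

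There were 7 groups of 3 arrays. For 2 h, 24 h or 6 d, cells received either 20 nM dexamethasone (Dex), which acts on the glucocorticoid receptor, or the inflammatory cytokine tumour necrosis factor alpha (TNF), and the control was untreated at 0 h. No untreated group matched the later times, so in changes against control the agent and the time in culture cannot be told apart. All groups had been differentiated for 14 days, and the series follows them as either agent brings on insulin resistance. The labels used here give a dose for Dex and none for TNF, and call the 3 arrays of a group biological replicates without saying whether they were separate differentiations, so p-values measure the spread between these arrays. Levels of different genes are not comparable on these arrays, since each probe set has its own response.

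Insulin raises glucose uptake in fat cells mainly by moving GLUT4 from a store inside the cell to the plasma membrane. Sortilin (Sort1) helps to form the storage vesicles. The Rab GTPase-activating proteins TBC1D4, also called AS160, and TBC1D1 hold the vesicles back until AKT phosphorylates them, and fusion then pairs VAMP2 on the vesicle with syntaxin 4 (Stx4a) at the membrane. GLUT1 carries much of the uptake without insulin, and GLUT3 is best known as the neuronal transporter. The arrays measure transcripts and not transporters at the surface.

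Adipocyte identity was checked on a marker list. Adipoq, Fabp4 and Lpl lay between 14.16 and 15.00 on every array, and 7 of 8 adipocyte markers with a probe set passed the filter, Lep being the exception. Of 8 macrophage and leukocyte markers, Ptprc, Adgre1 and Itgam, which define the lineage, did not pass it, with group means between 3.64 and 4.66. The other 5 (Cd68, Csf1r, Lyz2, Cd14 and Cd3e) passed, with Cd14 reaching 9.20 on its highest array. One array, TNF 6 d replicate 2, stood apart by measures over the whole array and its control transcripts. Over all probe sets it correlated at 0.896 and 0.898 with its mates, and its standard deviation (SD) was 2.04, where the other 20 ranged between 2.44 and 2.51. Control transcripts read 2.00 higher at the 3′ than at the 5′ end, a sign of RNA quality, where the rest read 0.0210 to 0.777 higher. Changes of members that involve the TNF 6 d group are given with and without this array. A called change has a limma p below 0.05 after Benjamini-Hochberg adjustment over all 12156 genes, and ± gives the standard error (SE) from 3 arrays against 3, with the spread pooled over all groups.

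The stretches before the starts of Slc2a1 and Tbc1d4 are shown because only these measured members had a usable window. Expression values did not enter that choice. In RefSeq on build GRCm38.p6, 5 of the 9 members had an entry in the promoter table used here, and 2 of the measured ones had a window that lay ahead of the annotated gene. The Slc2a1 window is chr4:119108495-119108744, on the plus strand, the 250 bases before the start of the gene. The Tbc1d4 window is chr14:101609282-101609441, on the minus strand, the 160 bases of its window that lie before the annotated gene. Capitals mark matches, on either strand, to 4 motifs: the TATA box TATAAA, the GC box GGGCGG, the CCAAT box CCAAT, and the hexamer AGAACA of the glucocorticoid response element.
Slc2a1: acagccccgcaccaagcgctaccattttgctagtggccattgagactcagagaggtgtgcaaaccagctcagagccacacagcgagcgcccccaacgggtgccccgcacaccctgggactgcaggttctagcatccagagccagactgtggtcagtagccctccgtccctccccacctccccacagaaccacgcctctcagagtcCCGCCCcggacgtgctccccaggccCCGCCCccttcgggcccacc
Tbc1d4: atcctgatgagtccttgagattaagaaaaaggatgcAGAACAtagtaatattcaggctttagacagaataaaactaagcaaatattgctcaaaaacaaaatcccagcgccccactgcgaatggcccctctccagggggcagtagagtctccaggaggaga
The Slc2a1 stretch held 2 GC boxes, both as CCGCCC, and none of the other motifs, with a G and C content of 66.4%. A GC box was found in 32.7% of 32851 mouse windows of that length. The Tbc1d4 stretch held 1 AGAACA and none of the others, with a G and C content of 44.4%. That hexamer was found in 10.9% of windows cut to the same 160 bases. A match describes these letters and does not mark a binding site.

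Slc2a4, the insulin-regulated transporter itself, fell under both agents, late under Dex and by 24 h under TNF. After 24 h of TNF its level was 9.68, 9.82 and 9.62, against 10.74, 10.96 and 10.84 in control, a log2 change of -1.14 ± 0.15 or 2.20-fold lower (limma adjusted p = 4.27e-05). After 6 d of TNF it was 9.81, 9.36 and 9.65, a change of -1.23 ± 0.15 against the same control arrays (limma adjusted p = 5.03e-05), and -1.11 ± 0.12 without replicate 2. No treated array overlapped with control at either time. In these cultures, fewer fat cells and less Slc2a4 RNA per cell cannot be told apart.

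The 2 h arrays of TNF already lay below control for Slc2a4, at 10.56, 10.31 and 10.30. That difference of -0.46 ± 0.15 did not pass the test (limma adjusted p = 0.146) and passed it without TNF 6 d replicate 2 (0.00762). The drop between the 2 h and 24 h groups was tested itself, at -0.68 ± 0.15 (limma adjusted p = 0.00964), and was not called without TNF 2 h replicate 1 (-0.60, 0.0639). Between 24 h and 6 d of TNF the difference was -0.10 ± 0.15, and the arrays overlapped (limma adjusted p = 0.657). It was 0.02 without TNF 6 d replicate 2 (0.946).

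Dex left a different course. Slc2a4 read 10.91, 10.91 and 10.63 after 2 h and 10.81, 10.83 and 10.75 after 24 h, which overlapped with control at both times, with changes of -0.03 ± 0.15 and -0.05 ± 0.15. After 6 d it was 10.11, 9.93 and 10.21, against 10.74, 10.96 and 10.84 in control, a change of -0.76 ± 0.15 or 1.70-fold lower (limma adjusted p = 0.00273). The step between 24 h and 6 d was -0.71 ± 0.15 (limma adjusted p = 0.0377), 1 of the 83 genes called in that comparison. The call was kept in 7 of the 21 fits that each left out 1 array, with a highest adjusted p of 0.205 (without Dex 6 d replicate 2), at changes between -0.78 and -0.64. The 6 d fall against control was kept in all 21 of those fits, with changes between -0.83 and -0.69. The other Slc2a4 probe set, 1415959_at, lay at -0.95 ± 0.41 after 6 d of Dex, which did not pass over 21429 probe sets (limma adjusted p = 0.233). The change of 1415959_at was -1.69 ± 0.41 after 24 h and -1.78 ± 0.41 after 6 d of TNF (0.0141 and 0.00915), and -1.28 at 6 d without replicate 2 (0.0178). Its 24 h TNF arrays read 8.27, 8.49 and 6.96, so replicate 3 lay far below its mates.

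**Figure D1:**
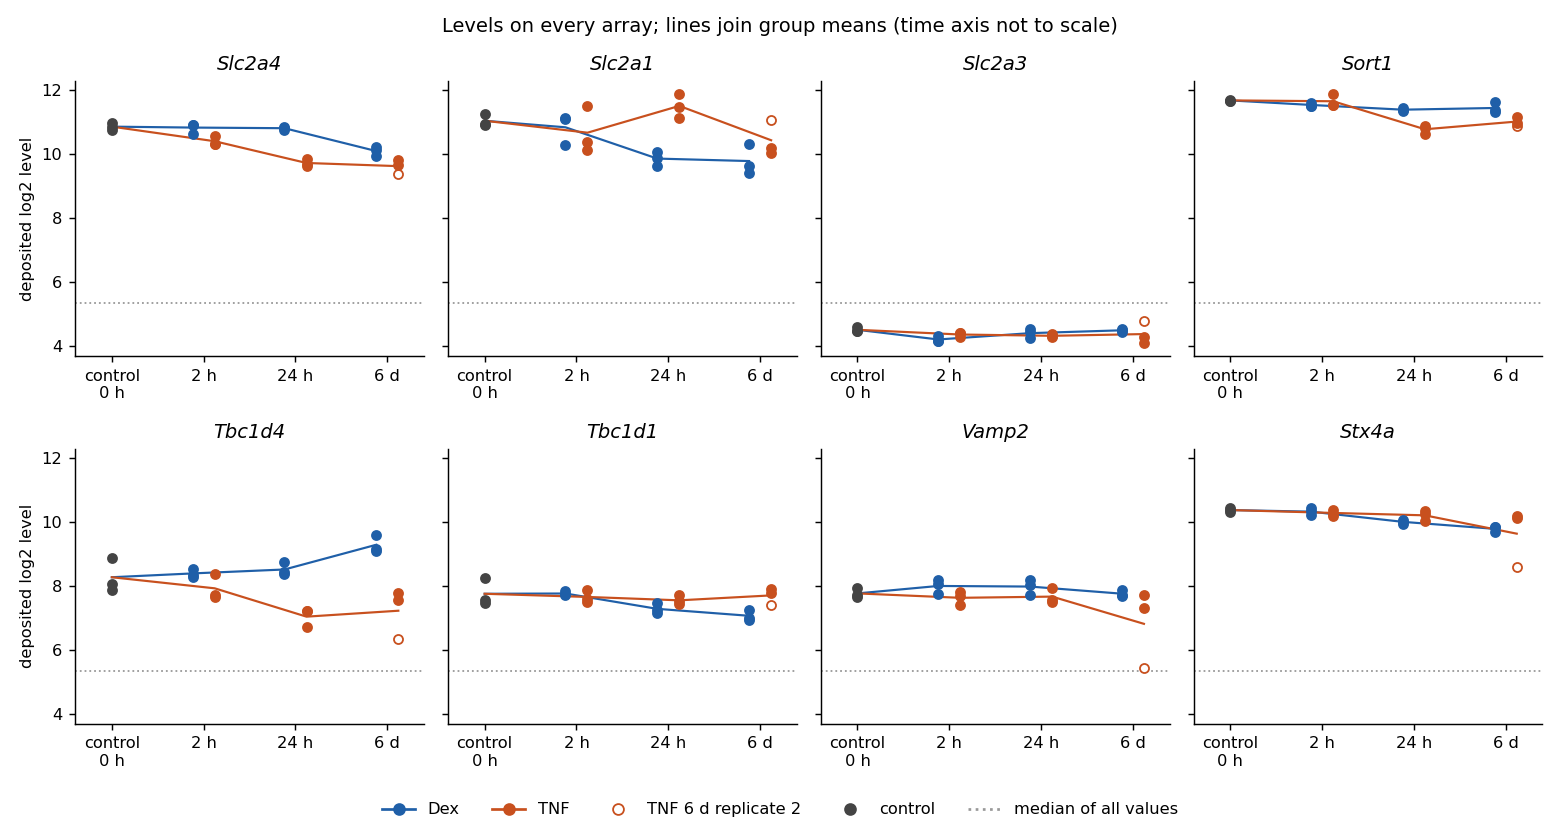
Deposited log2 level (y) of 8 members on each of 21 arrays by time (x, not to scale), with lines through the group means of Dex and TNF and the 3 control arrays at 0 h. Slc2a4 had left its control level by 24 h of TNF and only after 6 d of Dex, the plotted probe set of Slc2a3 stayed below the median of all values (dotted, 5.34) throughout, and TNF 6 d replicate 2 (open points) lay far below its mates for Vamp2, Stx4a and Tbc1d4.

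Slc2a1, the basal transporter, fell after 6 d of Dex, and at 24 h its level was lower under Dex than under TNF. After 24 h of Dex it read 9.86, 10.06 and 9.62, against 10.94, 11.24 and 10.91 in control, and after 6 d 9.61, 10.29 and 9.40. All 6 of these Dex arrays lay below every control array. The 6 d change was -1.26 ± 0.35, 2.39-fold lower (limma adjusted p = 0.0304). The 24 h change of -1.18 ± 0.35 did not pass (limma adjusted p = 0.0736), but passed with replicate number as a block (0.0179), which the check of pairing called for in that comparison, and without TNF 6 d replicate 2 (0.00882). The 6 d call was lost without any one of control replicates 1, 2 and 3 (-1.30, -1.16 and -1.32, with adjusted p of 0.075, 0.128 and 0.0645) and without Dex 6 d replicate 1 or 3 (-1.18 and -1.08, with 0.114 and 0.145).

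At 24 h of TNF, Slc2a1 did not follow Slc2a4. It read 11.13, 11.47 and 11.88 after 24 h of TNF, against 10.94, 11.24 and 10.91 in control, a difference of 0.46 ± 0.35 that did not pass (limma adjusted p = 0.578). After 6 d it read 10.18, 11.06 and 10.03, a change of -0.61 ± 0.35 (limma adjusted p = 0.21), and without replicate 2, the highest of the 3, a change of -0.93 ± 0.33 (0.052). At 2 h the arrays spread between 10.13 and 11.49 under TNF and between 10.28 and 11.10 under Dex, and both ranges overlapped with control. The wide SE of this gene has a counterpart in RNA quality and in replicate number. On 4 arrays the 3′ minus 5′ difference was above 0.5, at 0.683 to 2.00 against 0.0210 to 0.283 on the other 17, and the chosen Slc2a1 probe set was the highest of its group on all 4 (Dex 6 d replicate 2, TNF 2 h replicate 2, TNF 24 h replicate 3 and TNF 6 d replicate 2). On the last of these the other probe sets, 1426599_a_at and 1426600_at, were the lowest of the group, at 9.52 and 7.59. The chosen Slc2a4 probe set was the lowest of its group on 3 of these 4 arrays and the middle on TNF 2 h replicate 2. Its other probe set, 1415959_at, was the lowest on all 4. Replicate 2 also had the highest Slc2a1 level in control (11.24), Dex 2 h (11.10, beside 11.09 in replicate 1) and Dex 24 h (10.06). On those arrays the 3′ minus 5′ difference was 0.179, 0.245 and 0.115. The part of RNA quality in the Slc2a1 and Slc2a4 values was not tested, and it was not told apart from replicate number.

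Slc2a1 has 3 probe sets, which changed nearly alike after 24 h of Dex. After 6 d of Dex the other pair changed more than the one chosen for its level. With p adjusted over the same probe sets, 1426599_a_at changed by -1.28 ± 0.32 and 1426600_at by -1.19 ± 0.28 after 24 h of Dex (limma adjusted p = 0.0289 and 0.0206). After 6 d of Dex they changed by -1.53 ± 0.32 and -1.58 ± 0.28 (0.00414 and 0.00105). After 6 d of TNF both were called lower too, at -1.10 ± 0.32 and -1.33 ± 0.28 (0.0307 and 0.00503), where the chosen probe set 1434773_a_at was not. Without replicate 2 these changes were -1.05 and -1.20 (0.036 and 0.00631). None of the 3 was called at 24 h of TNF. At 24 h of Dex only the call differed by probe set, since the chosen one changed by -1.18 ± 0.35 (limma adjusted p = 0.088). At 6 d of TNF the call differed too, with changes between -1.33 and -0.61, or between -1.20 and -0.93 without replicate 2.

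The chosen probe set of Slc2a3 was not above the median of all values on any array. It lay between 4.07 and 4.76 over the 21 arrays, with group means between 4.19 in Dex 2 h and 4.50 in control, and was not tested. The 4 Slc2a3 probe sets had means between 4.05 and 4.37, and 1 of them, 1455898_x_at, read 6.53 on TNF 6 d replicate 2, against 4.04 and 4.28 on its mates.

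The sorting receptor Sort1 fell under TNF at the same times as Slc2a4. After 24 h of TNF it read 10.79, 10.86 and 10.63, against 11.65, 11.66 and 11.68 in control, a change of -0.90 ± 0.14 or 1.87-fold lower (limma adjusted p = 0.000147). After 6 d of TNF it read 11.16, 10.88 and 10.97, a change of -0.66 ± 0.14 (limma adjusted p = 0.00355), and -0.60 ± 0.12 without replicate 2 (0.000818). Both calls were kept whichever array was left out. Under cyclic loess scaling with all arrays the 6 d change was -0.25 and was not called (0.32).

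At 2 h of TNF Sort1 read 11.52, 11.88 and 11.52, which overlapped with control, and the step between 2 h and 24 h was -0.88 ± 0.14 (limma adjusted p = 0.000349). Under Dex the 3 arrays of each time, 11.50 to 11.57 at 2 h, 11.33 to 11.44 at 24 h and 11.31 to 11.61 at 6 d, all lay below the 3 control arrays. Those differences were small, between -0.29 ± 0.14 and -0.14 ± 0.14, and none passed the test. Under Dex the probe set 1450955_s_at of Sort1 was at -0.43 ± 0.22 at 24 h and -0.39 ± 0.22 at 6 d, not called with all arrays (0.57 and 0.431) and called without TNF 6 d replicate 2 (0.00834 and 0.00989). Of the other Sort1 probe sets, 1450955_s_at changed by -0.78 ± 0.22 and -1.44 ± 0.22 after 24 h and 6 d of TNF (limma adjusted p = 0.039 and 0.000501), and by -1.06 at 6 d without replicate 2. The third, 1423363_at, changed by -0.96 ± 0.34 and -0.34 ± 0.34 and was not called with all arrays (0.108 and 0.478). Without replicate 2 it was called at both times (0.00161 and 0.00868), the 6 d change then being -0.90.

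Tbc1d4, the AKT target that restrains the vesicles, lay above control after 6 d of Dex and fell under TNF. After 6 d of Dex it read 9.15, 9.59 and 9.09, against 7.85, 8.06 and 8.87 in control, a difference of 1.01 ± 0.32 or 2.02-fold. All 3 Dex arrays lay above control, yet the difference did not pass with all arrays (limma adjusted p = 0.0643) and passed without TNF 6 d replicate 2 (0.00262). After 24 h of TNF it read 7.19, 7.21 and 6.69, a change of -1.23 ± 0.32 (limma adjusted p = 0.0201), and after 6 d 7.76, 6.33 and 7.55, a change of -1.05 ± 0.32 (0.0385). The 6 d value leaned on the outlying array: without it the change was -0.61 ± 0.26 and was not called (0.109). Control replicate 3, at 8.87, also mattered, since without it neither TNF change was called (-0.93 with 0.131 at 24 h and -0.74 with 0.17 at 6 d). The 24 h call was lost as well without TNF 24 h replicate 3 (-1.06, 0.113). The 6 d call was lost without control replicate 2 (-1.15, 0.067), Dex 2 h replicate 1 (-1.05, 0.0502) or Dex 24 h replicate 2 (-1.05, 0.0501).

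The other Tbc1d4 probe set, 1455903_at, gave the rise under Dex and no called fall under TNF. It changed by 1.06 ± 0.27 after 6 d of Dex (limma adjusted p = 0.0212). After 24 h and 6 d of TNF it changed by -0.18 ± 0.27 and 0.31 ± 0.27 (0.837 and 0.414, the second being -0.04 with 0.937 without replicate 2), where the chosen probe set 1435292_at fell by 1.23 and by 1.05 on the log2 scale. The called fall of Tbc1d4 under TNF is therefore a statement about 1 of its 2 probe sets. Control replicate 3 was low for 1455903_at, where the control arrays read 7.19, 7.17 and 6.43, and high for 1435292_at (8.87). The 24 h TNF arrays of 1455903_at read 6.90, 6.54 and 6.80, below control replicates 1 and 2 and above replicate 3. Its changes without control replicate 3 were not fitted.

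**Figure D2:**
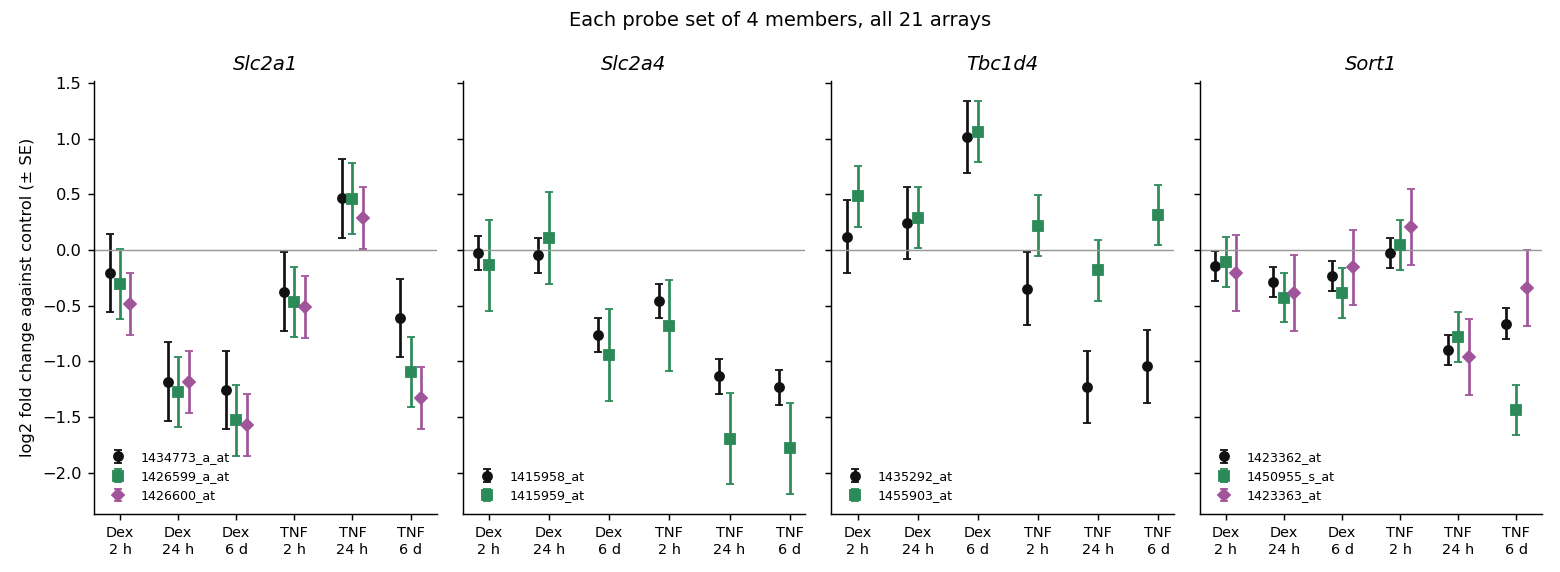
Log2 fold change against control ± SE (y) of every tested probe set of Slc2a1, Slc2a4, Tbc1d4 and Sort1, from all 21 arrays, for each agent and time (x). Both probe sets of Slc2a4 lay below 0 at Dex 6 d, TNF 24 h and TNF 6 d, the 3 of Slc2a1 lay close together under Dex and between -1.33 and -0.61 at TNF 6 d, and 1455903_at of Tbc1d4 stayed near 0 at TNF 24 h (-0.18) where 1435292_at lay at -1.23.

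Tbc1d1, the related regulator best known in skeletal muscle, was lower after prolonged Dex. It read 6.99, 7.25 and 6.92 after 6 d of Dex, against 7.54, 7.44 and 8.25 in control, a change of -0.69 ± 0.20 or 1.61-fold lower (limma adjusted p = 0.0338). The groups did not overlap, but control replicate 3 was high, and without it the change was -0.44 and was not called (0.198). The call was also lost without Dex 6 d replicate 1 (-0.65, 0.119) or replicate 3 (-0.62, 0.135). At 24 h of Dex the values 7.23, 7.14 and 7.45 overlapped with control by 1 array, at -0.47 ± 0.20 (limma adjusted p = 0.304). Under TNF all 3 times overlapped with control, at -0.10 ± 0.20 at 2 h, -0.20 ± 0.20 at 24 h and -0.05 ± 0.20 at 6 d (0.10 without replicate 2). Of its other probe sets, 1419446_at changed by -0.43 ± 0.19 at 6 d of Dex (0.259), and the rest were below the filter.

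The fusion proteins differed from each other. Vamp2, the vesicle SNARE, was called in none of the 13 comparisons, and its 18 values outside the TNF 6 d group lay between 7.38 and 8.18. TNF 6 d read 7.29, 5.41 and 7.71, so the change of -0.95 ± 0.37 against control (limma adjusted p = 0.0868) became -0.25 ± 0.18 without replicate 2 (0.364). Stx4a, the target SNARE at the plasma membrane, lay below control on every Dex array from 24 h: 9.99, 10.04 and 9.94 after 24 h and 9.66, 9.82 and 9.84 after 6 d, against 10.29, 10.36 and 10.42 in control. The replicates of these groups were close together, but replicate 2 of TNF 6 d (8.58, against 10.11 and 10.17 in its mates) set the pooled SE of the gene at 0.28. With all arrays the Stx4a changes of -0.37 at 24 h and -0.59 at 6 d of Dex did not pass (limma adjusted p = 0.862 and 0.278). Without that array the SE was 0.10 and both were called (0.0146 and 0.000135). Under TNF Stx4a overlapped with control at 2 h and 24 h, and the 6 d change was -0.74 ± 0.28 with all arrays and -0.22 ± 0.11 without replicate 2 (0.0768 and 0.181).

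Read against the whole array, all the members called against control with all arrays were lower. By limma none was called at 2 h of Dex or of TNF, where 2.48% and 3.82% of the 12156 genes were called, and 0 and 1 of the 7 had an unadjusted p below 0.05. At 24 h, limma called 0 of 7 under Dex, where 4.18% of all genes were called and 3 of the 7 had an unadjusted p below 0.05, and 3 of 7 under TNF (Slc2a4, Sort1 and Tbc1d4), where 8.69% were. At 6 d, 3 of 7 were called under Dex (Slc2a1, Slc2a4 and Tbc1d1), against 8.30% of all genes, and 3 of 7 under TNF (Slc2a4, Sort1 and Tbc1d4), against 15.2%. Without TNF 6 d replicate 2 these counts were 2 under Dex at 24 h (13.2% of all genes), 5 under Dex at 6 d (24.0%), 1 under TNF at 2 h (10.7%) and 2 under TNF at 6 d (20.5%), and were again 0 under Dex at 2 h (7.12%) and 3 under TNF at 24 h (25.6%). The median change of the 7 was -0.59 at 6 d of Dex and -0.20 at 24 h of TNF, beside -0.02 and -0.03 over all genes tested. At 6 d of TNF it was -0.74 beside -0.23, and -0.60 beside -0.05 without replicate 2. All 6 comparisons share the control arrays.

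**Figure D3:**
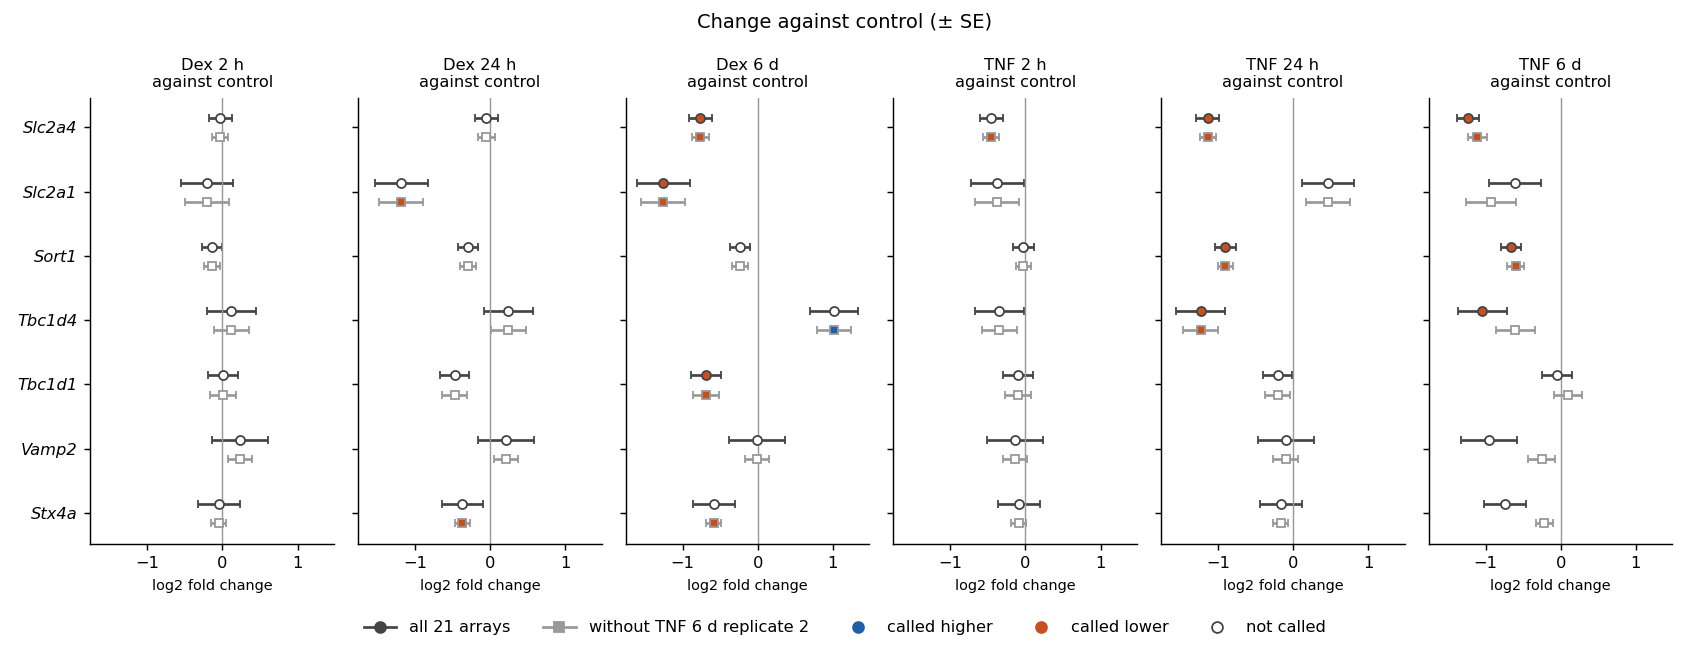
Log2 fold change against control ± SE (x) of the 7 tested members (rows) at 3 times of Dex and 3 of TNF, with all 21 arrays (circles) and without TNF 6 d replicate 2 (squares), filled where called. Slc2a4 was called lower at Dex 6 d (-0.76), TNF 24 h (-1.14) and TNF 6 d (-1.23) by both fits, and the SE of Vamp2 and Stx4a shrank in every panel when the array was left out.

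Dex was then set against TNF at the same time, which tests the difference between the agents directly. The difference itself uses no control array, but the control arrays enter the pooled spread behind its SE and p. At 2 h limma called none of the 7, where 5.97% of all genes were called and 1 of the 7 had an unadjusted p below 0.05. Slc2a4 was 0.43 ± 0.15 higher under Dex (limma adjusted p = 0.145), and was called without TNF 6 d replicate 2 (0.00938), with 14.8% of all genes. At 24 h 4 of 7 were called, against 13.5% of all genes, and all 4 had arrays that did not overlap. Slc2a4 was 1.09 ± 0.15 higher under Dex (limma adjusted p = 4.82e-05), Tbc1d4 1.47 ± 0.32 higher (0.00373) and Sort1 0.61 ± 0.14 higher (0.00393). Slc2a1 went the other way, at -1.65 ± 0.35, or 3.13-fold lower under Dex than under TNF (0.00289). The insulin-regulated and the basal transporter were thus on opposite sides at 24 h, and these 4 calls were kept whichever array was left out (33.0% of all genes were called without TNF 6 d replicate 2). The other probe sets of Slc2a1 gave -1.74 ± 0.32 and -1.47 ± 0.28 (0.000847 and 0.00123) and that of Slc2a4 1.80 ± 0.41 (0.00582). Those of Sort1, 1450955_s_at and 1423363_at, gave 0.35 ± 0.22 and 0.58 ± 0.34 and were not called with all arrays (0.4 and 0.353), but were without TNF 6 d replicate 2 (0.0127 and 0.0364). That of Tbc1d4 gave 0.47 ± 0.27 and was not called (0.342).

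At 6 d 4 of 7 were called between the agents, where 23.7% of all genes were, and 5 of 7 without TNF 6 d replicate 2 (30.1%). Tbc1d4 had the widest gap, with 9.15, 9.59 and 9.09 under Dex and 7.76, 6.33 and 7.55 under TNF, a difference of 2.06 ± 0.32 (limma adjusted p = 0.00018), or 1.62 ± 0.26 without TNF 6 d replicate 2 (5.68e-05). Its other probe set gave 0.75 ± 0.27 (0.0604), and 1.10 without that array (0.00136). Slc2a4 remained higher under Dex, by 0.47 ± 0.15 (0.033), as did Sort1, by 0.42 ± 0.14 (0.0309). Tbc1d1 was lower under Dex, at -0.64 ± 0.20 (0.0256). Without TNF 6 d replicate 2 these differences were 0.35, 0.36 and -0.78, all called (0.0376, 0.0225 and 0.00315). These 3 calls were less firm against other choices. The other Slc2a4 probe set gave 0.84 ± 0.41 and was not called (0.149, and 0.33 with 0.567 without TNF 6 d replicate 2), and the other Tbc1d1 probe set, 1419446_at, gave -0.10 ± 0.19 (0.729, and -0.29 with 0.3). For Sort1, 1450955_s_at gave 1.05 ± 0.22 and was called (0.00308), and 1423363_at gave 0.19 ± 0.34 and was not (0.704). Without TNF 6 d replicate 2 both were called, at 0.67 and 0.74 (0.000187 and 0.0197). Slc2a4 was not called without Dex 6 d replicate 1 or 3 (0.46 with 0.0883 and 0.41 with 0.119), nor under cyclic loess (0.05 with 0.843). Sort1 was not called without Dex 6 d replicate 2 or 3 (0.34 with 0.13 and 0.45 with 0.0601), nor under cyclic loess (0.02 with 0.956). Tbc1d1 was not called without Dex 6 d replicate 1 or 3 or TNF 6 d replicate 1 (-0.60 with 0.079, -0.57 with 0.0915 and -0.53 with 0.0566). Slc2a1 did not pass the test at 6 d, at -0.65 ± 0.35 (0.174), or -0.33 without TNF 6 d replicate 2 (0.507). Stx4a changed sides with the outlying array: the difference was 0.15 ± 0.28 with it and -0.37 ± 0.11, called lower under Dex, without it (0.0148).

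**Figure D4:**
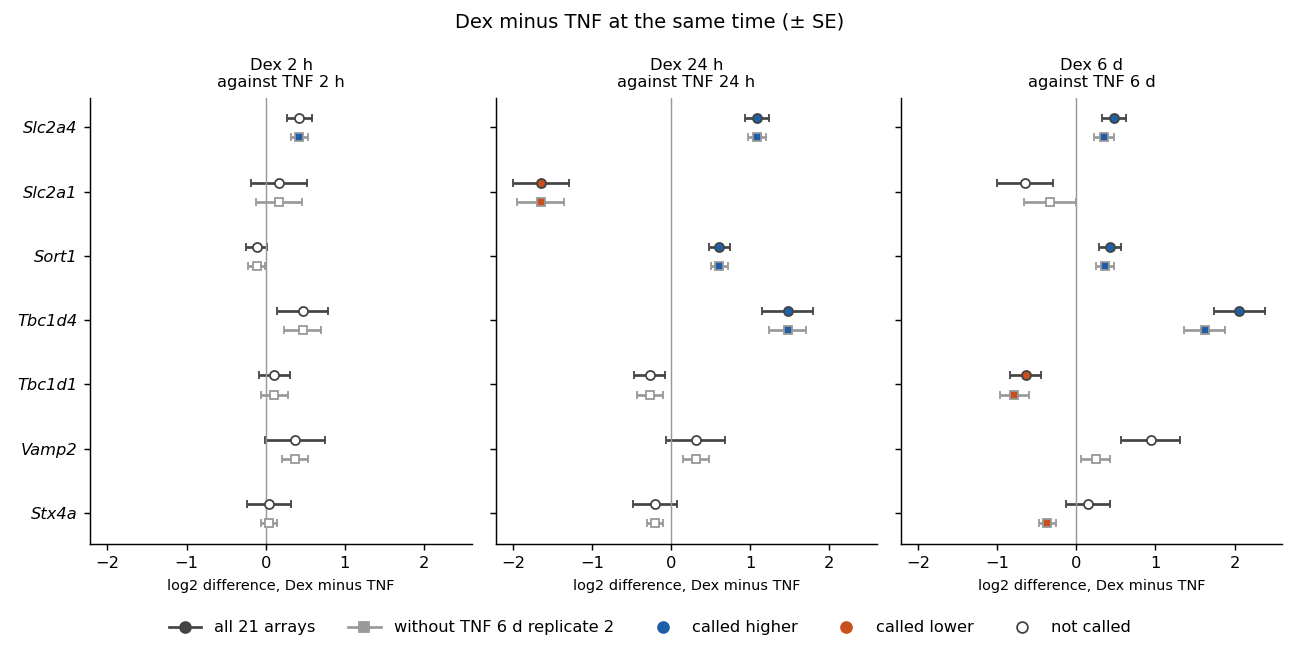
Log2 difference of Dex minus TNF at the same time ± SE (x) for the 7 tested members (rows), with all 21 arrays (circles) and without TNF 6 d replicate 2 (squares), filled where called. At 24 h Slc2a4, Sort1 and Tbc1d4 lay above 0 (1.09, 0.61 and 1.47) and Slc2a1 below (-1.65), and at 6 d Tbc1d4 reached 2.06.

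Between neighbouring times within an agent few members were called. Under Dex, limma called none at 24 h against 2 h (3.62% of all genes, and 2 of the 7 at an unadjusted p below 0.05), and Slc2a4 alone at 6 d against 24 h (0.683%, and again Slc2a4 alone, with 4.50%, without TNF 6 d replicate 2). Under TNF, Slc2a4 and Sort1 were called lower at 24 h against 2 h (5.69%), and none at 6 d against 24 h (5.99%, and 2 of the 7 at an unadjusted p below 0.05). Without TNF 6 d replicate 2, Slc2a1 (-0.98) and Stx4a (-0.32) were called lower at 24 h against 2 h of Dex (13.5%). Slc2a1 was then also called higher at 24 h against 2 h of TNF (0.84 ± 0.29, limma adjusted p = 0.0469) and lower at 6 d against 24 h of TNF (-1.39 ± 0.33, 0.00897), so that in this fit it went up and came down again. Tbc1d4 was then called lower at 24 h against 2 h of TNF (-0.89, 0.00859). In that fit 22.1% and 9.20% of all genes were called at these 2 steps of TNF.

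Ordered by group means, Slc2a4 ran highest in control, at 10.85, with Dex 2 h (10.82) and Dex 24 h (10.80) within the spread of the arrays, then TNF 2 h (10.39), Dex 6 d (10.08), TNF 24 h (9.71) and TNF 6 d (9.61). The arrays of the last pair overlapped. For Slc2a1 the order began with TNF 24 h (11.49) and control (11.03), and ended with Dex 24 h (9.85) and Dex 6 d (9.77), which overlapped with each other. For Sort1 control was the highest (11.67) and TNF 24 h the lowest (10.76). Tbc1d4 ran between Dex 6 d (9.28) and TNF 24 h (7.03).

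Over the 21 arrays, Slc2a4 varied most nearly with Sort1 among the members, with a Pearson r of 0.75 (0.72 over the 20 arrays without TNF 6 d replicate 2), and hardly with Slc2a1 (-0.14 and -0.08). Vamp2 and Stx4a had r = 0.76, which became -0.08 without that array. By the same measure the genes most like Slc2a4 were C1qtnf12 (0.93), Agpat3 (0.92), Ivd (0.91), 9030619P08Rik (0.91) and Pde3b (0.91). Without TNF 6 d replicate 2 these ranked 8, 14, 20, 4 and 28, so 4 of the 5 left the first 5 places. Those most like Slc2a1 were Plvap (0.94), Sfxn5 (0.86), Eef1akmt1 (0.85), Map2k6 (0.85) and Tiam1 (0.84), and those most like Sort1 were Acad9 (0.93), Gpd1 (0.93), Utrn (0.93), Adamts12 (0.93) and Mdh2 (0.92). Over those 20 arrays the genes named for Slc2a1 ranked 1, 14, 17, 15 and 19, and those for Sort1 11, 13, 2, 4 and 6. These values describe 21 arrays that share groups and RNA quality.

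Other genes of the pathway were taken from lists written for it. Of 14 SNARE partners tested, 3 were called against control with all arrays, all of them lower at 6 d of TNF, where 15.2% of all genes were called: Vamp3, the other vesicle SNARE of recycling endosomes (-0.81 ± 0.21), Stx16 (-0.80 ± 0.24) and Vti1a (-0.61 ± 0.17), both of the trans-Golgi fusion machinery. They remained called without TNF 6 d replicate 2, at -0.50, -0.43 and -0.47. In that fit SNARE partners were also called elsewhere. There were 3 higher at 6 d of Dex (24.0% of all genes called), 3 higher at 2 h of TNF (10.7%), and 2 higher and 1 lower at 24 h of TNF (25.6%). Of 34 Rabs, regulators, exocyst subunits and motors, those called with all arrays were called under TNF. Without TNF 6 d replicate 2 there were also 3 higher and 1 lower at 24 h of Dex (13.2% of all genes). At 6 d of Dex 5 were then higher and 2 lower (24.0%). With all arrays, 2 were lower at 24 h of TNF (8.69% of all genes called). These were Ralgapa2, a subunit of the complex that turns off RalA (-0.99 ± 0.28), and Ywhab, a 14-3-3 protein (-0.58 ± 0.09). At 6 d of TNF the exocyst subunits Exoc6 (-1.13 ± 0.21) and Exoc8 (-1.07 ± 0.27) were lower, as was Ywhab (-0.34 ± 0.09), and Ywhaz was higher (0.72 ± 0.20). Without replicate 2 all 4 were still called, at -0.84, -0.60, -0.38 and 0.39.

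Of 25 sorting and storage vesicle proteins, Tfrc, the transferrin receptor that recycles with part of the GLUT4 pool, was the only one called under Dex with all arrays, at -1.67 ± 0.32 after 24 h of Dex (limma adjusted p = 0.00325). In that comparison 4.18% of all genes were called. After 6 d of TNF, Cpe, a carboxypeptidase (1.17 ± 0.24), and Igf2r, the mannose 6-phosphate receptor found in GLUT4 vesicles (0.98 ± 0.25), were higher, and without replicate 2 they were at 1.52 and 1.27. Of 12 genes of the TC10 and caveolar route, the caveolar coat genes Cav1 and Cav2 were lower at 24 h of TNF (-0.78 ± 0.16 and -0.95 ± 0.24) and at 6 d (-0.98 ± 0.16 and -1.30 ± 0.24, or -0.73 and -0.90 without replicate 2). Flot2 was higher at 24 h of TNF (0.80 ± 0.20), Crkl at 2 h of TNF (0.83 ± 0.18) and Rapgef1 at 6 d of Dex (0.67 ± 0.18), and Sh2b2 was lower at 6 d of TNF (-1.09 ± 0.26, and -0.70 without replicate 2). With all arrays, 3.82%, 8.69% and 15.2% of all genes were called at 2 h, 24 h and 6 d of TNF. At 6 d of Dex the share was 8.30%.

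Of 10 other sugar transporters tested, Slc2a6 (GLUT6) was the 1 that was higher, at 24 h of TNF, with a mean of 6.32 against 4.72 in control (1.61 ± 0.23, limma adjusted p = 7.29e-05). Its control level lay below 5.34, so the fold is imprecise. Slc2a13, a myo-inositol transporter, was lower at 24 h of TNF (-1.04 ± 0.20) and 6 d (-0.65 ± 0.20, and -0.42 and not called without replicate 2). Slc2a8 (GLUT8) was lower at 6 d of Dex (-0.43 ± 0.13) and of TNF (-0.53 ± 0.13, and -0.49 without replicate 2). Slc5a2 was lower at 6 d of Dex (-0.67 ± 0.16), and Slc37a4, the glucose 6-phosphate carrier of the endoplasmic reticulum, at 6 d of TNF (-0.89 ± 0.20, and -0.60 without replicate 2). With all arrays, 8.30% of all genes were called at 6 d of Dex, and 8.69% and 15.2% at 24 h and 6 d of TNF.

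Of 4 hexokinases tested, which trap glucose after entry, Hk2 and Hk1 were called against control. Hk2, the insulin-regulated form, was higher at 24 h and 6 d of Dex (0.83 ± 0.16 and 0.53 ± 0.16, limma adjusted p = 0.00348 and 0.0424) and lower at 24 h and 6 d of TNF (-0.71 ± 0.16 and -1.10 ± 0.16, with 0.00569 and 0.000207, the 6 d change being -1.08 without replicate 2). Hk1 was higher at 24 h of TNF (1.09 ± 0.21, with 0.00219), beside a Slc2a1 that did not pass the test there. Over all genes, 4.18% and 8.30% were called at 24 h and 6 d of Dex, and 8.69% and 15.2% at those times of TNF. Between the agents at 24 h the share was 13.5%. Set directly against each other at 24 h, Dex minus TNF was 1.54 ± 0.16 for Hk2 (1.01e-06) and -1.62 ± 0.21 for Hk1 (2.32e-05), the same 2 signs as for Slc2a4 and Slc2a1.

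Of 19 known regulators of these transcripts or transporters, Cebpa, an adipogenic factor that binds the Slc2a4 promoter, was lower at 2 h of both agents (-1.16 ± 0.24 under Dex and -1.04 ± 0.24 under TNF), where Slc2a4 was not called with all arrays. It was still lower at 24 h and 6 d of TNF (-0.84 ± 0.24 and -0.98 ± 0.24, the second being -0.73 without replicate 2). Pparg, the adipocyte nuclear receptor, was lower at 2 h of TNF (-1.40 ± 0.35) and at 6 d (-1.38 ± 0.35, and -0.71 without replicate 2). Its partner Rxra was higher at all 3 times of Dex (0.58 ± 0.13, 0.77 ± 0.13 and 0.61 ± 0.13). Txnip, which lowers GLUT1 and GLUT4 at the surface, was higher at 6 d of Dex (0.67 ± 0.20). Thra was higher at 24 h of Dex (0.65 ± 0.15), Ebf1 was higher at 6 d of TNF (0.86 ± 0.22, and 0.66 without replicate 2), and Ebf2 was lower at 24 h and 6 d of both agents, between -1.06 and -0.81, with treated means close to 5.34. With all arrays, 2.48%, 4.18% and 8.30% of all genes were called at 2 h, 24 h and 6 d of Dex. At those times of TNF the shares were 3.82%, 8.69% and 15.2%. Without TNF 6 d replicate 2 more of these lists' genes were called, as over all genes. Of the 19 regulators, 2 were then higher and 9 lower at 2 h of TNF, where 10.7% of all genes were called.

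**Figure D5:**
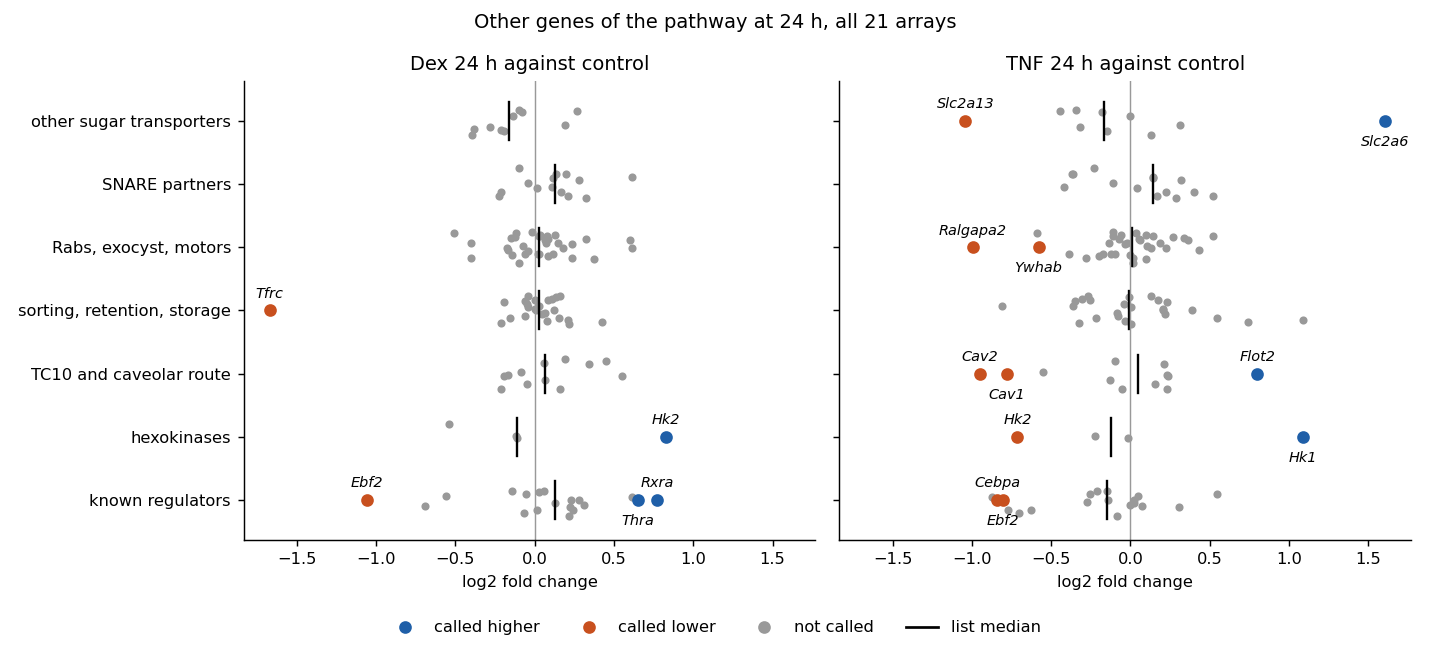
Log2 fold change at 24 h (x) of every tested gene of 7 pathway lists (rows) under Dex and under TNF, with called genes named and a bar at each list's median. Tfrc (-1.67) was the only vesicle protein called under Dex, where 4.18% of all genes were called. Hk2 lay at 0.83 under Dex and -0.71 under TNF, and the list medians all lay between -0.16 and 0.14.

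Markers of cell state moved with these groups. Of 7 adipocyte markers tested, 4 were lower at 24 h and 4 at 6 d of TNF, where 8.69% and 15.2% of all genes were called. Their median change was 0.02 at 24 h and -0.09 at 6 d of Dex. Summed over the 8 adipocyte markers with a probe set, the log2 level was 16.28 to 16.56 at 24 h and 16.15 to 16.58 at 6 d of TNF, against 16.83 to 16.87 in control. Such a sum is led by the brightest, here Adipoq and Fabp4 (14.88 and 14.93 in control). Of 7 preadipocyte and fibroblast markers tested, 4 were lower at 6 d of Dex (8.30% of all genes called) and 3 higher at 6 d of TNF (15.2%). The 8 with a probe set summed to 12.53 to 12.87 at 6 d of Dex and 13.92 to 14.65 at 6 d of TNF, against 13.34 to 13.70 in control. For the 8 macrophage and leukocyte markers with a probe set the sums were 9.36 to 9.59 at 24 h of TNF, against 8.54 to 8.61 in control. Of the 5 tested, Cd68 and Cd14 were higher at 24 h of TNF, with means of 6.78 and 8.37 against 5.21 and 6.60 in control, and Cd14 was higher at 6 d of TNF (8.37). The part of these shifts in the lower Slc2a4, Sort1 and Slc2a1 was not tested.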

How the data were processed

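RNA of 21 cultures was hybridised to Affymetrix mouse arrays as biotinylated cRNA, per the labels' protocols. The authors deposited RMA values, per the submitters' processing notes, and no version is given in the sources used here. They were read as log2 levels from their range (2.70 to 15.06) and used as deposited. Of 45101 probe sets, 34958 had 1 gene, 932 several (not used) and 9211 were unnamed. Symbols of 34754 were updated through the Entrez identifier, and 204 were kept.

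All arrays entered 1 limma fit with a mean per group and a trended empirical Bayes prior (R 4.3.3, limma 3.58.1 and the data.table package, version 1.17.8), with 14 residual and 3.96 prior degrees of freedom, or 13 and 6.56 without TNF 6 d replicate 2. The 13 comparisons were two-sided, and the method was tested on simulated data. An exact permutation of 3 arrays against 3 cannot go below 0.1. Members and lists were chosen with earlier results of these data known. Named genes are the members, up to 4 called genes of each list and comparison against control with the largest change, and the 5 genes with the highest correlation with Slc2a1, Slc2a4 or Sort1.

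Replicate numbers paired the arrays (correlations of deviations from the group means all above 0.1) only at 24 h of Dex, set against control (between 0.233 and 0.447) or against TNF (between 0.207 and 0.270). Alternatives were the filter, probe set summary, scaling, trend, block, weights, the 2 groups alone and each array left out.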

Additional observations from a re-analysis of the deposited data

Results flagged for a closer look

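Some members differed between Dex and TNF at the same time, by limma's test of that difference. At 24 h the log2 difference of Dex minus TNF was -1.65 for Slc2a1, 1.09 for Slc2a4, 1.47 for Tbc1d4 and 0.61 for Sort1. At 6 d it was 0.47 for Slc2a4, -0.64 for Tbc1d1, 2.06 for Tbc1d4 and 0.42 for Sort1. At both times Slc2a4, Tbc1d4 and Sort1 were higher under Dex than under TNF, while Slc2a1 at 24 h and Tbc1d1 at 6 d were lower. The 6 d calls of Slc2a4, Sort1 and Tbc1d1 were less firm, as given above. They were kept in 19, 19 and 18 of the 21 fits that each left out 1 array. No set rule screened the groups of 3 arrays for single outlying values of a gene, and each array was left out in turn instead.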

How the results depend on the processing

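Of 20 called member values, 11 were kept with every single array left out, 20 with a stricter filter (6.10) or no trend, 17 with no filter, 16 with the mean of all probe sets, 16 with median centring and 15 with cyclic loess. In fits of only the 2 groups compared, 13 were kept. Members called, with all arrays and as the range over single arrays left out, were 0 and 0 to 2 for Dex 24 h against control, 3 and 1 to 5 for Dex 6 d, 0 and 0 to 1 for TNF 2 h, 3 and 2 to 3 for TNF 24 h, and 3 and 2 to 5 for TNF 6 d. Between the agents they were 0 and 0 to 1 at 2 h, 4 and 4 to 4 at 24 h, and 4 and 1 to 5 at 6 d. Between times they were 0 and 0 to 2 for Dex 24 h against 2 h, 1 and 0 to 1 for Dex 6 d against 24 h, 2 and 1 to 4 for TNF 24 h against 2 h, and 0 and 0 to 2 for TNF 6 d against 24 h. Over all genes, calls with single arrays left out ran between 682 and 2913 for Dex 6 d and between 1018 and 4596 for TNF 6 d against control. The replicate block kept all 20 calls. It called 1 member for Dex 24 h against control (Slc2a1) and 1 for TNF 6 d against 24 h (514 and 790 of all genes). With only the 2 groups of Dex 24 h and control it called 4, where 2897 of all genes were called. For Dex 6 d against 24 h, 0 were called with no filter, median centring or cyclic loess, where 57, 55 and 160 of all genes were. The mean of all probe sets called 1 for Dex 24 h against control and 1 for TNF 6 d against 24 h (569 and 798 of 11208 genes). Cyclic loess called 2 for Dex against TNF at 6 d and 1 for TNF 6 d against 24 h (3273 and 1060 of 12156 genes). Over all 12156 genes, array weights called between 2013 and 6335 per comparison, where the main fit called between 83 and 2881. Array weights called 5 for Dex 24 h, 6 for Dex 6 d, 2 for TNF 2 h and 6 for TNF 6 d against control, 4 at 2 h and 7 at 24 h between the agents, 4 for Dex 24 h against 2 h, 3 for Dex 6 d against 24 h, 4 for TNF 24 h against 2 h and 4 for TNF 6 d against 24 h. Only the 2 groups compared called 3 for Dex 24 h, 5 for Dex 6 d and 0 for TNF 6 d against control, 1 at 2 h and 0 at 6 d between the agents, 3 for Dex 24 h against 2 h and 2 for Dex 6 d against 24 h. In the same order, these 2-group fits called 1860, 2421, 29, 1623, 221, 2929 and 596 of all genes. With TNF 6 d replicate 2 also left out, 1 was called for TNF 6 d against 24 h, beside 419 of all genes. That setting was chosen after seeing the data, like the 2-group block. Of 2765 member changes recomputed under the alternatives, 64 had the other sign, nearly all of them not called in either fit. Those called in 1 of the fits were for Stx4a in Dex against TNF at 6 d (-0.40 with array weights, -0.37 without TNF 6 d replicate 2 in either fit, with a range of -0.37 to 0.43 over single arrays left out) and for Tbc1d1 in TNF 6 d against control (0.29 with array weights). The cause was not tested. Array number limits the precision, and 1 array of poor quality widens the SE in every comparison.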
